A study of Homo sapiens with 24 samples.

Results

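Human chromosome 19 carries a dense set of genes with a symbol of ZNF and a number, most of which encode C2H2 zinc finger proteins. All 249 protein-coding genes of this kind on chromosome 19 in GENCODE release 44 were taken by symbol and matched by Ensembl identifier to the 63299 rows of the deposited count table. Each of the 249 had a row. Of these, 217 passed the filter on low counts and were tested, among 20240 genes tested in all, and 2 had no count in any library. The rule for membership used position and name and no measured value, though it was chosen with earlier results of these data known. Described beside the family were the 266 ZNF genes of other chromosomes (234 tested) and the 1210 other protein-coding genes of chromosome 19 (888 tested).

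C2H2 zinc finger proteins bind DNA through tandem arrays of short fingers, in which a pair of cysteines and a pair of histidines hold a zinc ion and a few residues contact the bases. Many of the chromosome 19 members also carry a KRAB domain, which recruits the corepressor TRIM28 and through it the histone methyltransferase SETDB1, heterochromatin protein 1 and the DNA methylation machinery, so that the bound locus is silenced. A large share of these repressors bind transposable elements, and the transcripts of the family are known as low in abundance and short-lived.

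Whole transcriptome sequencing was performed in A2780, a platinum-sensitive ovarian cancer cell line, and in A2780cis, its platinum-resistant derivative. Cells of both lines received 1 μM 5-FdU-ECyd or were left as controls, and RNA was taken after 6 h or 12 h. 5-FdU-ECyd is a duplex drug in which 5-fluorodeoxyuridine, which blocks thymidylate synthesis, is joined to ethynylcytidine, an inhibitor of RNA synthesis. This gave 24 libraries in 8 groups of 3, namely A2780 control and treated and A2780cis control and treated, each at 6 h and at 12 h. Resistance was represented by 1 pair of related lines, so a difference between the lines cannot be told apart from other differences that arose when A2780cis was derived.

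Library totals ranged from 11077368 to 21901406 counts. The sum over the 249 genes made up 0.294% to 0.361% of the counts in control A2780 libraries, 0.527% to 0.532% in A2780 libraries treated for 12 h, 0.272% to 0.304% in control A2780cis libraries and 0.344% to 0.402% in A2780cis libraries treated for 12 h. Of the markers checked, VIM was abundant in every library (group means of 843 to 2617 CPM, which are TMM-normalized counts scaled to a common library size) and fell at 12 h in both lines (log2 fold change of -1.46 in A2780 and -1.48 in A2780cis). Of 6 markers of ovarian tumour epithelium, PAX8, WT1 and CDH1 were at or below 0.14 CPM in every library. KRT18 had group means of 1.11 to 2.89 CPM in A2780 and 23.4 to 26.5 CPM in A2780cis, KRT8 of 0.751 to 1.53 and 4.39 to 5.97 CPM, and EPCAM of 0.666 to 1.35 and 0.188 to 0.830 CPM. After 12 h of treatment KRT18 rose in A2780 (log2 fold change 0.69) and EPCAM in A2780cis (2.07). The EPCAM change rests on low counts: no A2780cis group mean exceeded 0.830 CPM, and 3 counts gave up to 0.168 CPM in A2780cis controls at 12 h. PTPRC and PECAM1, markers of leukocytes and endothelium, were at or below 0.085 CPM in every library, whereas COL1A1, a fibroblast marker, had group means of 5.07 to 14.7 CPM in A2780 and 0.413 to 2.69 CPM in A2780cis and rose at 12 h in both (log2 fold change of 0.81 and 0.92). Mitochondrial transcripts took 5.56% to 5.86% of the counts in A2780 controls at 12 h against 7.10% to 7.65% after treatment, and 4.45% to 4.74% against 7.40% to 8.15% in A2780cis. The part of these shifts in the results below was not tested.

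The members lay in 16 groups along chromosome 19 when a new group was begun wherever neighbouring genes started over 1 Mb apart. The largest groups held 59 genes at the distal end of the long arm (GRCh38, chr19:55476617-58481230, ZNF628 to ZNF446), 40 genes at chr19:51571283-53580269 (ZNF175 to ZNF331) and 37 genes at chr19:19668796-24129968 (ZNF101 to ZNF254). The median gene spanned 26097 bases with 5480 exonic bases. The longest open reading frame of a member had a median of 592.5 codons and held a median of 12.5 C2H2 finger motifs, with a range of 0 to 39, and 184 members had at least 10. A KRAB box motif was found in 208 of the 248 frames that could be read. The exons of the tested members had a median GC content of 43.9%, against 60.6% in the other tested protein-coding genes of chromosome 19 and 48.7% in all genes tested. Per kilobase of exon, the tested members had a median control level of 1.92 CPM, against 3.18 CPM for the ZNF genes of other chromosomes and 3.25 CPM for all genes tested.

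The start regions of these genes also differed from start regions in general in how often they held some short motifs. RefSeq start sites (GRCh38.p14) were matched by symbol for 218 members, and the windows of 300 bases around them were compared with 27305 such windows. The letters CCGGAAG, which form an ETS type site, were found on either strand in 99 member windows (45.4%), against 10.7% of all windows. GGGCGG, a GC box, was found in 67.9% against 44.6%, whereas TATAAA was found in 1.83% against 12.0%. The 250 bases before the start held a median of 16 CG steps in members and 11 in all windows. A few of these stretches are shown because their genes carry the main results below: ZNF554 and ZNF563 were among the genes that rose most after treatment, and ZNF85, ZNF432 and ZNF439 were all but missing from A2780cis. Each is written 5′ to 3′ on the strand of the gene, and capitals mark CG steps. The windows are ZNF554 at chr19:2819618-2819867, plus strand, ZNF563 at chr19:12333634-12333883, minus strand, ZNF85 at chr19:20923001-20923250, plus strand, ZNF432 at chr19:52048839-52049088, minus strand and ZNF439 at chr19:11848476-11848725, plus strand.
ZNF554: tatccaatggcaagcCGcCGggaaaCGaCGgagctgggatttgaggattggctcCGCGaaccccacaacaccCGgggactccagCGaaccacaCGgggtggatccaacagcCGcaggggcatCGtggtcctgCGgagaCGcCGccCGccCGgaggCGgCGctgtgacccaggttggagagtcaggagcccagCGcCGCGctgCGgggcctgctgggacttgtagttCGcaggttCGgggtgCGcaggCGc
ZNF563: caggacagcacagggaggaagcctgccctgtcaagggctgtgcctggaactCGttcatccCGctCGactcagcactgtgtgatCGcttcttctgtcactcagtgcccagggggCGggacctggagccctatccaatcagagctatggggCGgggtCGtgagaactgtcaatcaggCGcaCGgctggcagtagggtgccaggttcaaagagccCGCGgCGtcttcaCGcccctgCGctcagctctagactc
ZNF85: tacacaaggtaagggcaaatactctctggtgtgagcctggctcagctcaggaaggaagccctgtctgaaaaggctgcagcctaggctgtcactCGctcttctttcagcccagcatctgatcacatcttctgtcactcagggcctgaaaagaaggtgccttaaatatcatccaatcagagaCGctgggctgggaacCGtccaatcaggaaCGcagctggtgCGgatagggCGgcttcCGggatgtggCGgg
ZNF432: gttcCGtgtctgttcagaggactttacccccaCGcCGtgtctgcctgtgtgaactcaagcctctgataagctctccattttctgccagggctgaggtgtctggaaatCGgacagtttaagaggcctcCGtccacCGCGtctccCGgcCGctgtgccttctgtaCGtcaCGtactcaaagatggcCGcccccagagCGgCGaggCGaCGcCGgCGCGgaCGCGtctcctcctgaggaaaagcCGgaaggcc
ZNF439: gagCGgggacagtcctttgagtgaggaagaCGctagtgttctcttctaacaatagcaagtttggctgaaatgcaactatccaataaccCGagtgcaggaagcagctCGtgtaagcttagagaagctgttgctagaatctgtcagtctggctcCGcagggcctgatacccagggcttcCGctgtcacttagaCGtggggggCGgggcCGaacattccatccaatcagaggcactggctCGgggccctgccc

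The ZNF554 window held 26 CG steps and that of ZNF563 held 14. The windows of ZNF85, ZNF432 and ZNF439 held 8, 22 and 10. GGGCGG was found in all 5 windows, and CCGGAAG in those of ZNF85 and ZNF432. Over the 8 genes at the floor in A2780cis controls that had an entry, the median was 13 CG steps. These letter matches describe the windows and do not show binding.

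The first question was how the family responded to 5-FdU-ECyd after 12 h. In A2780 cells, 137 of the 217 genes rose and 10 fell at an adjusted p of at most 0.05 (quasi-likelihood test of edgeR, p-values adjusted by Benjamini-Hochberg over all genes tested), with a median log2 fold change (FC) of 0.61. Among all genes tested, 28.6% rose and 26.1% fell and the median was 0.02. In A2780cis cells, 121 rose and 15 fell, with a median of 0.47, against 31.0% higher and 28.9% lower and a median of 0.04 among all genes tested. The ZNF genes of other chromosomes lay between: 103 of 234 rose and 30 fell in A2780 (median 0.25), and 83 rose and 58 fell in A2780cis (median 0.14). The other protein-coding genes of chromosome 19 had medians of -0.01 in A2780 and 0.10 in A2780cis. All of these values are relative to the bulk of the RNA in the same libraries, in which a change in the share of cells that hold a transcript and a change in its amount per cell cannot be told apart.

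The direction was mostly shared between the lines. At 12 h, 102 genes rose in both, which was 74.5% of the 137 that rose in A2780 and 84.3% of the 121 that rose in A2780cis. A further 7 fell in both, 43 passed the threshold in neither line, and no gene moved in opposite directions. Across the 217 genes the 12 h log2 FCs of the lines, which share no library, had a Pearson r of 0.72 and a Spearman rho of 0.75, given as a description since genes are not independent replicates. The normalized counts of treated and control libraries did not overlap for 151 genes that were higher and 11 that were lower in treated A2780 cells, where 33.0% and 31.0% of all genes tested did so. In A2780cis the numbers were 121 and 18, against 30.1% and 29.4%. The sizes were often modest: 50 genes in A2780 and 40 in A2780cis rose with a log2 FC of at least 1. Only ZNF285 in A2780 and ZNF787 and ZNF492 in A2780cis fell with a log2 FC of -1 or below.

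**Figure D1:**
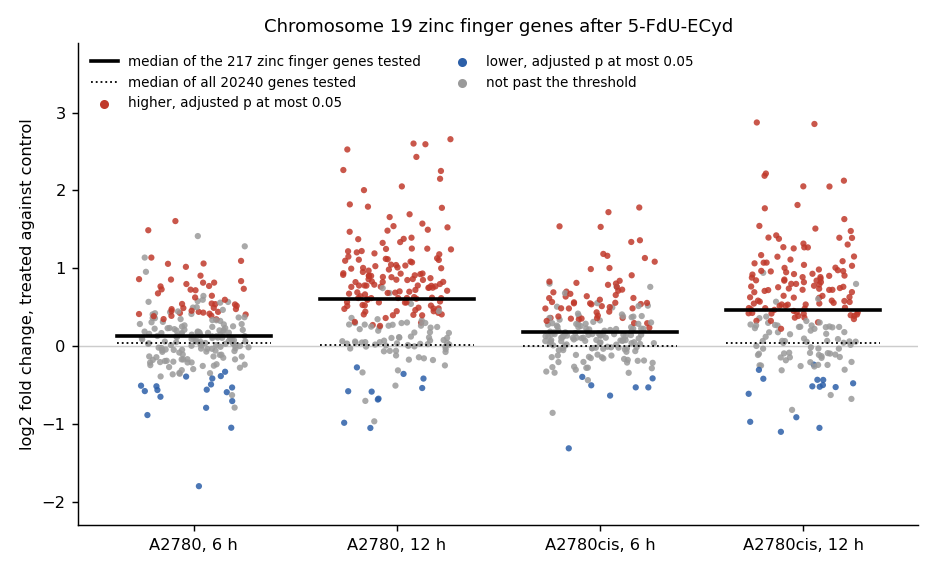
Each point is 1 zinc finger gene of chromosome 19 (y axis, log2 FC of treated against control cells) in each line and time (x axis, points spread sideways for legibility), red where higher and blue where lower at an adjusted p of at most 0.05, and grey otherwise. Solid and dotted lines are the medians of the 217 members and of all 20240 genes tested; at 12 h the member medians stand at 0.61 and 0.47, above the medians of 0.02 and 0.04 of all genes. Genes that had no library above 3 counts in a compared group are not drawn (1, 0, 13 and 11 genes from left to right).

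The plot of the log2 FCs by line and time shows the members as a body above 0 at 12 h, and not a few extreme genes alone. Fitted values of genes that had no library above 3 counts in a group depend on a prior count. With such genes set to the bound that 3 counts give, or left out where both groups were at that floor, the medians were 0.61 in A2780 and 0.47 in A2780cis at 12 h. At 6 h they were 0.13 and 0.18, against fitted medians of 0.13 and 0.19.

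ZNF506, a KRAB member with 8 fingers (ENSG00000081665.13, chr19:19785839-19821751, minus strand), had the largest increase in A2780. Its control libraries at 12 h held 3.63, 3.19 and 2.67 CPM and the treated ones 17.7, 19.7 and 22.2 CPM. The groups were far apart, with a log2 FC of 2.66 ± 0.20 (SE; edgeR adjusted p = 3.93e-11). In A2780cis, ZNF506 went from 1.73, 2.81 and 2.27 CPM to 8.0, 11.6 and 8.48 CPM, a log2 FC of 2.05 (edgeR adjusted p = 8.18e-09).

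ZNF563 (ENSG00000188868.13, chr19:12317477-12333720, minus strand, 10 fingers and a KRAB motif) stood at 2.84, 2.55 and 1.80 CPM in A2780 controls and at 15.8, 15 and 12.6 CPM after 12 h of treatment. The log2 FC was 2.60 ± 0.17 (SE; edgeR adjusted p = 2.92e-12). In A2780cis it stood at 4.48, 3.99 and 3.40 CPM in controls and at 15.7, 12.1 and 14.1 CPM in treated cells (log2 FC 1.81, edgeR adjusted p = 4.2e-10). Treated levels of ZNF563 were thus within the same range in the 2 lines, and the control levels were higher in A2780cis, with a log2 FC of 0.74 between the controls (edgeR adjusted p = 0.00153).

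ZNF554 (ENSG00000172006.11, chr19:2819868-2836735, plus strand, 7 fingers and a KRAB motif) responded to a like degree in both lines. In A2780 it had 3.76, 4.11 and 4.62 CPM in controls and 20.0, 20.0 and 15.8 CPM after 12 h (log2 FC 2.15 ± 0.16, SE; edgeR adjusted p = 2.72e-11). In A2780cis it had 2.12, 2.64 and 2.38 CPM in controls and 10.9, 9.19 and 13.1 CPM after 12 h (log2 FC 2.22 ± 0.17, SE; edgeR adjusted p = 5e-11). ZNF554 was also among the genes that rose earliest, from 3.02, 3.31 and 4.82 CPM to 10.5, 8.70 and 11.8 CPM in A2780 at 6 h while A2780cis went from 3.05, 3.11 and 2.86 CPM to 11, 9.49 and 10.5 CPM. No control and treated libraries overlapped in any of the 4 comparisons.

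ZNF540 (chr19:37551406-37614179, plus strand) rose from 1.52, 1.51 and 0.925 CPM to 8.34, 8.11 and 6.22 CPM in A2780 at 12 h, while A2780cis libraries went from 1.49, 1.57 and 1.46 CPM to 6.99, 7.46 and 6.23 CPM. The log2 FCs were 2.53 and 2.19. ZNF699 (chr19:9291140-9309838, minus strand) rose from 4.22, 4.52 and 4.93 CPM to 23.6, 21.1 and 21.3 CPM in A2780, a log2 FC of 2.26, and by a log2 FC of 1.39 in A2780cis. Both genes carry a KRAB motif, and their treated libraries lay above all control libraries of the same line and time.

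**Figure D2:**
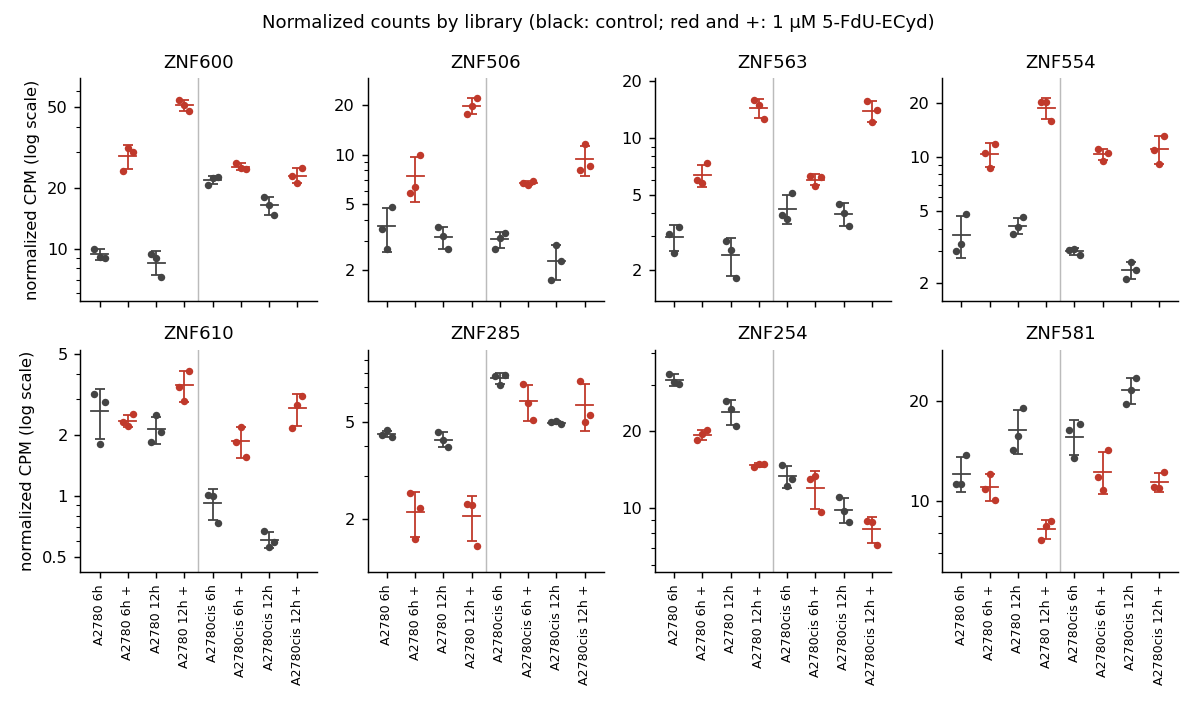
Normalized counts (y axis, CPM on a log scale) of 8 zinc finger genes in every library, by line and time (x axis; black, control; red and marked +, 1 μM 5-FdU-ECyd), with the mean and SD of each group of 3. ZNF600 rises to 48.0 to 54.5 CPM in A2780 at 12 h and only to 21.1 to 24.9 CPM in A2780cis, ZNF506, ZNF563 and ZNF554 rise in both lines, and ZNF285 is lower in treated than in control A2780 libraries at both times.

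Few genes went down. ZNF581 (chr19:55635459-55645623, plus strand, 4 fingers, no KRAB motif) was the only gene among the 3 largest decreases of both lines at 12 h, counted over genes with an average log2 CPM of at least 1. It stood at 14.3, 15.8 and 19.1 CPM in A2780 controls and at 7.64, 8.41 and 8.70 CPM after treatment, and at 19.6, 21.6 and 23.5 CPM against 11.1, 11 and 12.3 CPM in A2780cis. The log2 FCs were -0.99 (edgeR adjusted p = 7.2e-07) and -0.92 (edgeR adjusted p = 1.1e-06). ZNF285 fell in A2780 from 4.55, 4.23 and 3.96 CPM to 2.31, 2.30 and 1.55 CPM (log2 FC -1.05, edgeR adjusted p = 3.29e-05). ZNF254 fell there from 26.1, 24.2 and 20.9 CPM to 14.4, 14.8 and 14.9 CPM (log2 FC -0.69, edgeR adjusted p = 2.9e-05). In A2780cis, ZNF787 fell from 13.7, 17.5 and 19.8 CPM to 5.97, 10.4 and 7.23 CPM (log2 FC -1.10), and ZNF492 from 5.11, 3.42 and 3.46 CPM to 1.97, 1.84 and 2.00 CPM (log2 FC -1.05). In each of these cases the treated and control libraries did not overlap.

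At 6 h the response was smaller. In A2780, 47 of the 217 genes rose and 19 fell, with a median log2 FC of 0.13, against 16% higher and 13.4% lower among all genes tested. In A2780cis, 62 rose and 8 fell (median 0.19), against 14.4% and 16.3%. The other protein-coding genes of chromosome 19 had larger medians at this time, 0.40 in A2780 and 0.38 in A2780cis. The groups did not overlap for 61 genes that were higher and 27 that were lower in A2780, against 21.1% and 20.5% of all genes, and for 81 and 16 in A2780cis, against 21.1% and 22.1%. Between the lines, 30 genes rose in both, which was 63.8% of those that rose in A2780 and 48.4% of those that rose in A2780cis. A single gene, ZNF333, moved in opposite directions at 6 h (log2 FC -0.49 in A2780 and 0.29 in A2780cis), and 4 fell in both lines, namely ZNF17, ZNF57, ZNF497 and ZNF724, of which all but ZNF497 are named after their values were seen, as is ZNF333.

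The 6 h risers largely remained risers. In A2780, 43 genes rose at both times, 91.5% of the 47 at 6 h and 31.4% of the 137 at 12 h, and in A2780cis 53 did, 85.5% of the 62 and 43.8% of the 121. In all 4 comparisons 28 genes rose, among them ZNF506, ZNF540, ZNF554, ZNF563 and ZNF699. The 1 gene that fell in all 4 was ZNF57, named after its values were seen, with log2 FCs of -0.59 at 6 h and -0.59 at 12 h in A2780 and of -0.51 and -0.44 in A2780cis. ZNF221, a KRAB member, rose in A2780cis at 6 h from 0.832, 1.00 and 0.981 CPM to 3.03, 3.07 and 2.26 CPM, a log2 FC of 1.54. ZNF497 behaved otherwise: at 6 h it fell from 3.05, 3.01 and 3.19 CPM to 1.04, 1.75 and 0.989 CPM in A2780cis (log2 FC -1.32) and by a log2 FC of -0.89 in A2780, while at 12 h it was higher in treated A2780cis (log2 FC 0.64). Since 52.3% of the exonic bases of ZNF497 are shared with other genes and reads that overlap several genes were allowed, its counts are uncertain. ZNF792 fell in A2780cis at 6 h, from 5.18, 5.72 and 5.73 CPM to 4.07, 3.50 and 3.91 CPM (log2 FC -0.53).

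The treatment effect itself grew between the time points. The log2 FC at 12 h exceeded that at 6 h past the threshold for 100 genes in A2780, and was smaller for 3 (ZNF576, ZNF581 and ZNF628), with a median difference of 0.51, where 10.7% and 13.0% of all genes tested passed. In A2780cis the effect was larger at 12 h for 43 genes and smaller for 7 (median 0.27), where 10.3% and 13.6% of all genes passed. This number rested in part on single libraries: it was 26 larger and 5 smaller without A2780cis treated replicate 3 at 6 h, and 28 and 5 without A2780cis control replicate 3 at 12 h. With GC correction it was 66 and 12, against 14.8% and 16.9% of all genes. Control cells also differed between the times. In A2780 controls, 12 members were higher at 12 h than at 6 h and 40 lower (median -0.17), against 16.6% and 10.3% of all genes, and in A2780cis controls 19 were higher and 87 lower (median -0.30), against 18% and 21.9%. With library size alone the A2780cis controls gave 21 higher and 27 lower members, against 23.2% and 7.90% of all genes, and the A2780 controls 14 and 26, against 19% and 7.44%. The mean GC content of the counted transcripts, weighted by counts, moved with the time of the controls, from 46.0% to 46.8% at 6 h to 47.2% to 48.5% at 12 h. With trends on GC content taken out library by library, an alternative chosen after seeing the data, the control comparisons gave 1 higher and 12 lower members in A2780, against 5.28% and 4.45% of all genes in that fit, and 2 higher and 27 lower in A2780cis, against 5.02% and 7.07%. The treatment comparisons at 12 h then gave 146 higher and 12 lower members in A2780, against 29.2% and 32.5% of all genes, and 138 and 17 in A2780cis, against 33.4% and 31.9%. The control comparisons also rested on single libraries: without A2780 control replicate 1 at 6 h, 3 members were higher and 13 lower, and without A2780 control replicate 3 at 12 h, 3 were higher and 9 lower. Without A2780cis control replicate 3 at 12 h, 16 were higher and 49 lower.

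Members with and without the KRAB motif were described apart. Of 178 tested genes with the motif, 125 rose and 5 fell in A2780 at 12 h (median log2 FC 0.68), and 105 rose and 7 fell in A2780cis (median 0.54). Of 38 without it, 11 (28.9%) rose and 5 fell in A2780 (median 0.16). In A2780cis 15 of them (39.5%) rose and 8 fell (median 0.27). Of all genes tested, 28.6% rose and 26.1% fell in A2780, and 31.0% and 28.9% in A2780cis. The share without the motif that rose in A2780 was thus near that of all genes. The split by motif was not tested, and the sets differ in other ways. Members of the family are close in sequence, and the authors gave a read with several alignments a fraction at each, so that a gene with shared reads has counts that are not whole. In only 38 of the 217 tested genes were counts whole in at least 23 libraries, and of these 12 rose and 2 fell in A2780 at 12 h (median 0.19), against 125 and 8 of the 179 others (median 0.68). In A2780cis 13 of the 38 rose and 5 fell (median 0.27). Other protein-coding genes with whole counts in at least 23 libraries were set beside them. Of these, 28.5% rose and 29.4% fell in A2780 at 12 h, and 27.7% and 33.0% in A2780cis. The share of the 38 members that rose was near this, 31.6% in A2780 and 34.2% in A2780cis. The share of the 38 that fell was smaller, 5.26% and 13.2%. Among the whole-count genes, 11 of 18 with the KRAB motif rose in A2780 (median 0.47) and 9 of 18 in A2780cis (median 0.51), whereas of 20 without it 1, ZNF180, rose and 2 fell in A2780 (median 0.03), and 4 rose and 4 fell in A2780cis (median 0.02). The whole-count genes without the motif had a median exonic GC content of 65.1%. The values of single genes with shared reads, such as ZNF600, ZNF611 and ZNF254, therefore carry reads that may come from near relatives.

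Across the 217 genes, the 12 h log2 FC followed other gene properties only weakly. The Pearson r with the number of fingers was 0.11 in both lines, that with the gene span was 0.03 in A2780 and 0.01 in A2780cis, and that with the GC content was -0.27 and -0.22. These correlations are across genes, within fits that share their libraries, and serve as a description.

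Rises occurred in every large group along the chromosome. Among all genes tested, 28.6% rose and 26.1% fell in A2780 at 12 h, and 31.0% and 28.9% in A2780cis. In the group from ZNF653 to ZNF791 (chr19:11483427-12640098), 22 of 25 tested genes rose and 0 fell in A2780 at 12 h (median 0.85), and 21 rose in A2780cis (median 0.80), all by edgeR's quasi-likelihood test at the same threshold. In that from ZNF175 to ZNF331, 22 of 32 rose in A2780 and 24 in A2780cis. In the group from ZNF565 to ZNF573 (chr19:36182276-37817300) it was 16 of 23 in A2780 and 12 in A2780cis, and in that from ZNF575 to ZNF296 (chr19:43525497-45076478) 16 and 13 of 23. In the largest group, from ZNF628 to ZNF446, 33 of 59 rose in A2780 (median 0.48) and 30 in A2780cis (median 0.36). In that from ZNF101 to ZNF254, 16 of 25 rose and 2 fell in A2780 (median 0.43), and 12 rose and 1 fell in A2780cis (median 0.45). The group from ZNF557 to ZNF846 (chr19:7069703-9793180) had the smallest medians of those with at least 12 tested genes, 0.28 and 0.09. There 6 and 3 of 12 genes were higher and 0 and 2 lower, so in A2780cis the share that rose was not above that of all genes tested.

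**Figure D3:**
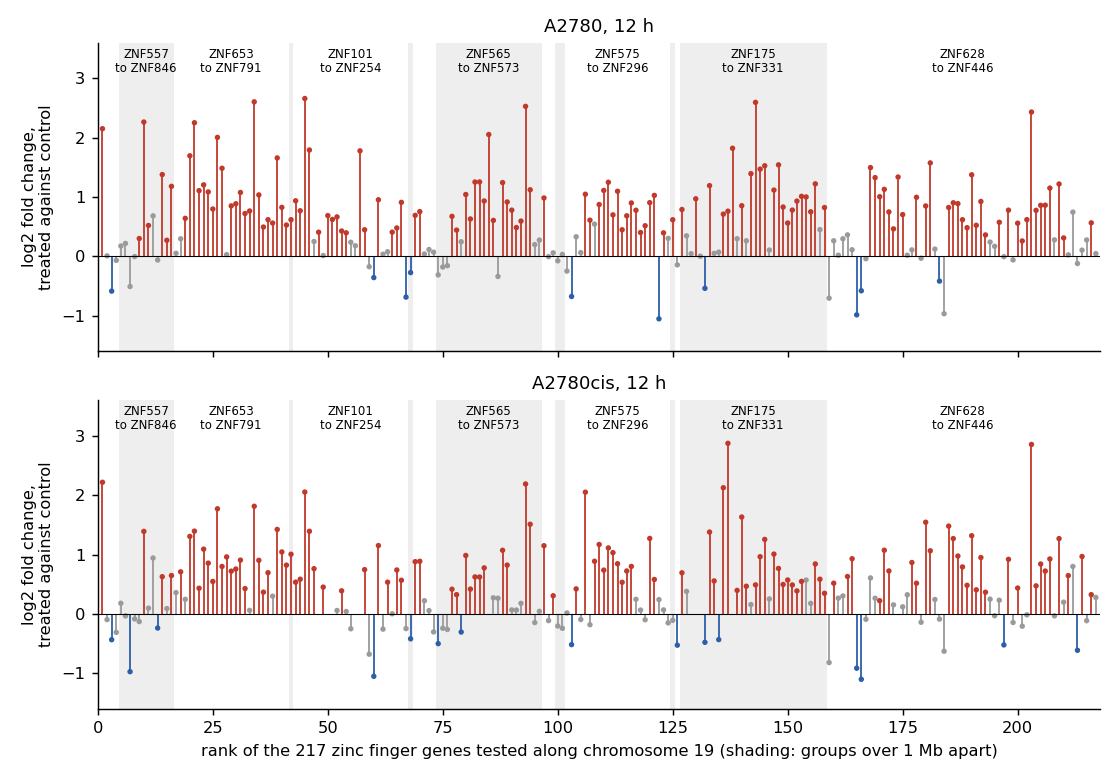
The 217 tested zinc finger genes in their order along chromosome 19 (x axis, rank; shading separates groups over 1 Mb apart, the large ones named by their first and last gene) with the 12 h log2 FC of treated against control cells (y axis) in A2780 above and A2780cis below; red and blue mark genes past the threshold, grey those that are not. Red bars stand in every large group in both lines, and in the group from ZNF653 to ZNF791 22 and 21 of 25 genes are red.

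The plot of the 12 h response along the chromosome also shows single genes of opposite direction beside genes that rose, such as ZNF285 within the group from ZNF575 to ZNF296. Of the other protein-coding genes of chromosome 19, 26.2% were higher and 25.1% lower in A2780 at 12 h, and 33.4% and 23.4% in A2780cis. Their difference from the members was not tested.

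Next it was asked whether the response differed between the platinum-sensitive and the platinum-resistant line. The interaction of line and treatment, the log2 FC in A2780cis less that in A2780, passed the threshold at 6 h for 3 of the 217 genes, 1 higher and 2 lower, against 0.692% and 2.38% of all genes tested. These were ZNF333 (0.79, named after its values were seen), ZNF600 (-1.39) and ZNF584 (-0.71). At 12 h it passed for 12 genes with a larger and 35 with a smaller effect in A2780cis (median -0.13), against 9.70% and 14.0% of all genes. This split depended on the scaling: it was 8 and 47 with library size alone (7.13% and 19.3% of all genes), 26 and 36 after GC correction (16.2% and 16.5%), and it turned to 32 and 28 after GC and length correction (17.1% and 15.1%). At 6 h, GC correction gave 7 higher and 5 lower members, against 1.84% and 5.03% of all genes.

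ZNF600 (ENSG00000189190.9, chr19:52749942-52786807, minus strand, 18 fingers and a KRAB motif) had the lowest interaction at 12 h, that is the effect most reduced in A2780cis. In A2780 it rose at 6 h from 9.98, 9.08 and 9.0 CPM to 24.3, 31.6 and 29.9 CPM, and at 12 h from 9.37, 8.98 and 7.19 CPM to 54.5, 51.4 and 48.0 CPM, a log2 FC of 2.59 ± 0.12 (SE; edgeR adjusted p = 3.26e-15). In A2780cis the controls at 12 h were at 18, 16.4 and 14.6 CPM and the treated cells at 22.9, 21.1 and 24.9 CPM, a log2 FC of 0.49. The interaction was -2.11 (edgeR adjusted p = 2.28e-09). Control levels of ZNF600 were higher in A2780cis than in A2780, yet treated A2780 cells reached levels above every A2780cis library. ZNF600 had whole counts in 2 of the 24 libraries.

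ZNF611, a KRAB gene of the same group, rose in A2780 from 9.44, 12.1 and 10.9 CPM to 28.8, 29.5 and 27.1 CPM (log2 FC 1.39, edgeR adjusted p = 9.57e-08). In A2780cis it was at 14.0, 13.5 and 14.9 CPM in controls and at 15.6, 20.2 and 11.3 CPM in treated cells, which overlapped, and the interaction was -1.24 (edgeR adjusted p = 0.000472). ZNF583 rose in A2780 from 5.81, 4.17 and 3.34 CPM to 11.2, 10.4 and 11.5 CPM (log2 FC 1.33), with a log2 FC of 0.26 that was not past the threshold in A2780cis and an interaction of -1.06 (edgeR adjusted p = 0.00239).

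Differences also went the other way. ZNF610 rose more in A2780cis, from 0.674, 0.561 and 0.594 CPM to 2.16, 2.81 and 3.12 CPM (log2 FC 2.13), than in A2780, from 1.85, 2.49 and 2.06 CPM to 3.43, 2.93 and 4.13 CPM (log2 FC 0.71). The interaction was 1.41 (edgeR adjusted p = 0.00242), and the control level of ZNF610 was lower in A2780cis by a log2 FC of -1.79. For ZNF285, which fell in A2780, A2780cis had 5.01, 5.05 and 4.91 CPM in controls and 7.37, 5.00 and 5.36 CPM after treatment (log2 FC 0.24, not past the threshold) at 12 h, and a log2 FC of -0.33 at 6 h, also not past the threshold. Its interaction at 12 h was 1.29 (edgeR adjusted p = 0.000562). ZNF584 fell in A2780cis at both times (log2 FC -0.64 at 6 h and -0.61 at 12 h), from 29.8, 32.9 and 32.7 CPM to 21.0, 20.2 and 21.1 CPM at 12 h, with a log2 FC of -0.12 in A2780 and an interaction of -0.49 at 12 h.

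The untreated lines were also compared. At 12 h, 28 members were higher and 86 lower in control A2780cis than in control A2780 cells (median log2 FC -0.22), against 25.4% and 27.5% of all genes tested, and at 6 h 37 were higher and 70 lower (median -0.13), against 25% and 22.9%. With library size alone the 6 h numbers were 25 and 83, against 20.4% and 26.9% of all genes. In the group from ZNF101 to ZNF254, on the proximal short arm, 21 of its 25 tested genes were lower in A2780cis at both times and 0 were higher, with medians of -1.25 at 6 h and -1.14 at 12 h, and the same medians when genes at the floor were set to their bound. Of the 34 other genes inside the same interval that were tested, 16 were lower at 6 h and 18 at 12 h, with medians of -0.74 and -0.83. Whether the region differs in copy number between the lines was not tested. ZNF254, in this group, was lower in A2780cis by a log2 FC of -1.27 at 12 h, and ZNF91, a repressor of SVA retrotransposons, by a log2 FC of -1.26 (edgeR adjusted p = 4.65e-09).

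Several members were all but missing from A2780cis. At 12 h, 8 genes with at least 10 counts in every A2780 control library did not exceed 3 counts in any A2780cis control library, a level called the floor here, and at 6 h there were 9. These were ZNF737, ZNF66, ZNF85, ZNF738 and ZNF493 of the group from ZNF101 to ZNF254, ZNF432, ZNF841 and, at 6 h only, ZNF528 of the group from ZNF175 to ZNF331, and ZNF835 near the end of the long arm. No member showed the opposite pattern. How many of all genes tested showed either pattern was not counted, so whether these numbers are particular to the members was not tested. Against the bound that 3 counts per library allow, ZNF738 was at least 77.5-fold, ZNF737 at least 53.5-fold, ZNF85 at least 52.5-fold, ZNF841 at least 28.7-fold and ZNF432 at least 25.5-fold lower in A2780cis at 12 h. ZNF835 was at least 15-fold, ZNF66 at least 9.21-fold and ZNF493 at least 7.17-fold lower. These floors cover counting error only.

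ZNF738 had 14.0, 11.6 and 13.6 CPM in A2780 controls at 12 h, and at most 0.5 of a count, a share of a multi-mapped read, in any A2780cis library at 12 h, treated or not. ZNF85 had 8.12, 10.1 and 8.27 CPM in A2780 controls and rose there to 14.0, 12.5 and 14.3 CPM (log2 FC 0.62), while A2780cis controls held 0, 0 and 0.0540 CPM. ZNF432 had 4.29, 4.57 and 4.01 CPM in A2780 controls and rose to 8.13, 8.99 and 8.06 CPM (log2 FC 0.97). In A2780cis it went from 0, 0 and 0.0540 CPM to 0.318, 0.287 and 0.187 CPM at 12 h, at least 1.57-fold higher. ZNF432 and ZNF841 overlap on the same strand, so their counts are not independent. ZNF439, named after its values were seen, was above the floor in A2780cis but had a log2 FC of -5.53 between the controls at 12 h (edgeR adjusted p = 9.05e-17). It rose after treatment in A2780 from a mean of 12.5 to 28.9 CPM (log2 FC 1.20), and its A2780cis mean went from 0.262 to 0.566 CPM (log2 FC 1.09).

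The number of members at the floor was lower after treatment in each comparison. Of the 249 genes, 27 were at the floor in A2780 controls at 12 h and 19 after treatment, and 40 and 29 in A2780cis. At 6 h these numbers were 29 and 26 in A2780 and 45 and 35 in A2780cis. The number of genes at 3 counts or fewer also depends on the library totals. Mean totals of treated against control libraries at 12 h were 1.58e+07 against 1.73e+07 in A2780 and 1.53e+07 against 1.91e+07 in A2780cis. At 6 h they were 1.21e+07 against 1.24e+07 in A2780 and 1.66e+07 against 1.24e+07 in A2780cis. How many of all genes were at the floor in each group was not counted. Whether the lower numbers after treatment are particular to the members was therefore not tested.

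**Figure D4:**
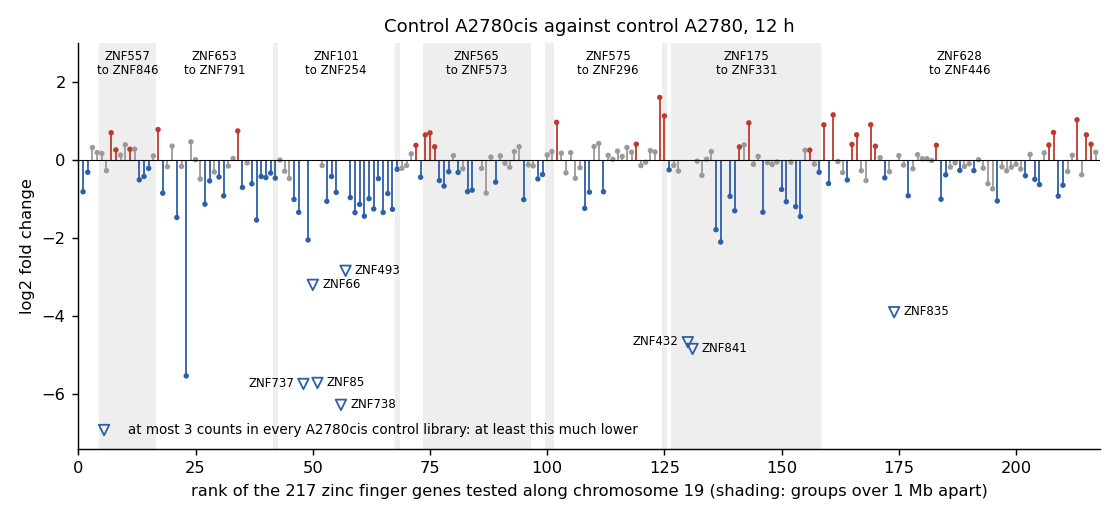
The 217 tested zinc finger genes in their order along chromosome 19 (x axis, rank; shading separates groups over 1 Mb apart) with the log2 FC of control A2780cis against control A2780 cells at 12 h (y axis); red and blue mark genes past the threshold. Open triangles are the 8 genes at the floor in A2780cis, drawn at the bound that 3 counts give, so the true difference is at least as large; 3 other genes at the floor in the controls of a line are not drawn.

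In the plot of the control lines, blue bars and triangles fill the group from ZNF101 to ZNF254, and red bars are spread over other groups. Among genes higher in A2780cis at 12 h, ZNF114 had a log2 FC of 1.12 between the controls (11.6, 11.6 and 12.1 CPM in A2780 and 28.0, 25.8 and 23.1 CPM in A2780cis), ZNF584 one of 1.02 and ZNF575 one of 0.96 (edgeR adjusted p = 0.00178). The libraries of the 2 lines did not overlap for ZNF114.

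The levels of the members, compared per kilobase of exon over the control libraries, ranged from 0 to 61.7 CPM. ZNF146, a protein made almost wholly of fingers, was the highest at 61.7 CPM per kilobase, far above ZNF121 (12.4), ZNF317 (10.4), ZNF581 (10.0) and ZNF700 (9.87). These high members were not the ones that rose most. ZNF146 fell in A2780 at 6 h from 235, 224 and 215 CPM to 137, 157 and 157 CPM (log2 FC -0.58, edgeR adjusted p = 0.000422), and at 12 h its log2 FCs of -0.18 in A2780 and -0.24 in A2780cis did not pass the threshold. ZNF700 rose at 12 h in both lines (log2 FC 0.80 and 0.55). ZNF317 rose in A2780 (log2 FC 0.30) and not in A2780cis (log2 FC -0.13, not past the threshold), with an interaction of -0.43. ZNF121 had a log2 FC of -0.06 in A2780, not past the threshold, and fell by 0.24 on the log2 scale in A2780cis, a direction that turned to 0.12 with GC and length correction.

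Most members have no well-known function of their own, and 10 with a described role were followed as a list. At 12 h, 5 of the 9 tested rose in A2780 and 0 fell, and 4 rose and 1 fell in A2780cis, with medians of 0.41 and 0.27. The shares of all genes tested were 28.6% higher and 26.1% lower in A2780, and 31.0% and 28.9% in A2780cis. ZNF331, an imprinted gene, rose in A2780 from 45.1, 40.3 and 41.3 CPM to 77.7, 75.3 and 70.9 CPM (log2 FC 0.82) and less in A2780cis (log2 FC 0.35; interaction -0.48). ZNF420, also called Apak, a repressor of p53 target genes, rose in A2780 (log2 FC 0.61), and its log2 FC of 0.27 in A2780cis did not pass. ZNF224, a repressor that binds WT1, rose in both lines (log2 FC 0.45 and 0.53), as did ZNF175 (log2 FC 0.79 and 0.69). ZNF675, an inhibitor of TRAF6 signalling, rose in A2780 (log2 FC 0.41). ZNF91 rose in A2780cis from 18.7, 16.8 and 16.6 CPM to 27.2, 28.8 and 19.5 CPM (log2 FC 0.53) and had a log2 FC of 0.08 in A2780, not past the threshold. ZNF382 fell in A2780cis (log2 FC -0.31), a direction that turned to 0.18 with GC and length correction. ZNF274, which marks the 3′ ends of zinc finger genes themselves with repressive chromatin, had log2 FCs of 0.28 and -0.03, and ZNF304 of -0.03 and -0.14, none past the threshold. ZNF93, a repressor of L1 elements, was at the floor in every group and was not tested.

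Genes for the partners of KRAB proteins were followed as a list. Of 18 genes listed for the KRAB corepressor complex and heterochromatin, all tested, 2 rose and 12 fell in A2780 at 12 h (median log2 FC -0.39), and 1 rose and 12 fell in A2780cis (median -0.56). The shares of all genes tested at 12 h were 28.6% higher and 26.1% lower in A2780, and 31.0% and 28.9% in A2780cis. At 6 h, 1 of the 18 rose and 4 fell in A2780, and 0 rose and 6 fell in A2780cis. The shares of all genes at 6 h were 16% higher and 13.4% lower in A2780, and 14.4% and 16.3% in A2780cis. With library size alone, 2 of the 18 rose and 8 fell in A2780 and 1 rose and 11 fell in A2780cis at 12 h. That setting gave 39.9% of all genes higher and 16.5% lower in A2780, and 35.7% and 25% in A2780cis. Whether the list differed from all genes was not tested. TASOR, a scaffold of the HUSH silencing complex, fell from 146 ± 11.8 to 86.0 ± 4.60 CPM in A2780 (SD, n = 3; log2 FC -0.76) while in A2780cis 117 ± 4.86 CPM became 44.8 ± 5.70 CPM (log2 FC -1.38). ATF7IP, which stabilizes SETDB1, fell in A2780cis (log2 FC -1.72, edgeR adjusted p = 3.86e-11), and its log2 FC of -0.28 in A2780 did not pass (edgeR adjusted p = 0.0557). UHRF1, which brings DNMT1 to replicated DNA, fell in both lines (log2 FC -1.08 and -1.26), as did the DNA methyltransferase DNMT3B (log2 FC -0.52 and -0.83). TRIM28 itself, named after its values were seen, fell by 0.37 and 0.59 on the log2 scale at 12 h, from 314 ± 28.0 to 243 ± 30.2 CPM in A2780. At 6 h it was the gene of the list that rose in A2780, from 191 ± 43.6 to 268 ± 50.9 CPM (log2 FC 0.49, edgeR adjusted p = 0.0197), and its log2 FC of 0.23 in A2780cis did not pass. The genes that rose at 12 h were CBX5 and MPHOSPH8 in A2780 and HDAC1 in A2780cis.

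**Figure D5:**
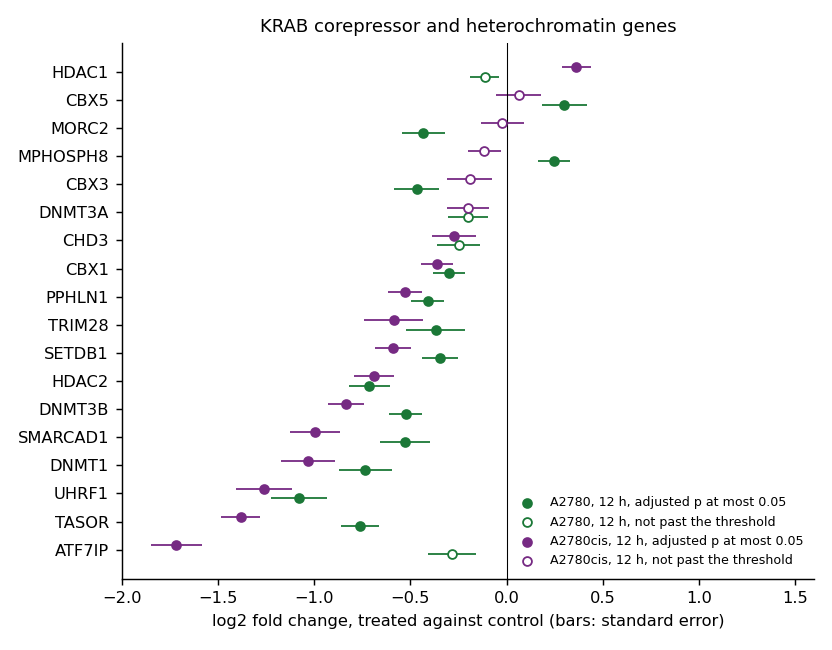
Log2 FC of treated against control cells at 12 h (x axis, with standard errors) for the 18 KRAB corepressor and heterochromatin genes (y axis), green for A2780 and purple for A2780cis, filled where the adjusted p was at most 0.05. Most points lie left of 0 in both lines, with ATF7IP at -1.72 and TASOR at -1.38 in A2780cis.

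The plot of the corepressor genes shows that the order of the genes differed between the lines, with ATF7IP lowest in A2780cis and UHRF1 lowest in A2780. A further list held 17 other C2H2 genes of chromosome 19, of the ZFP, ZSCAN, ZIM and ZBTB type, of which 10 were tested. At 12 h, 4 rose and 1 fell in A2780 (median 0.06), and 3 rose and 2 fell in A2780cis (median 0.03). ZSCAN1 (log2 FC 1.35 and 3.22) and ZSCAN18 (log2 FC 0.94 and 0.63) rose in both lines, and ZSCAN5A fell in both (log2 FC -0.48 and -0.51), all 3 named after their values were seen. Among all genes tested 28.6% rose and 26.1% fell in A2780 (median 0.02), and 31.0% rose and 28.9% fell in A2780cis (median 0.04).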

How the data were processed

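RNA was sequenced from 24 libraries, and the deposited values are expected counts per gene: per the paper's supplement and the submitters' processing notes, the authors trimmed reads (Trimmomatic), aligned them to GRCh38.p7 with STAR 2.5.2b and counted exons with featureCounts, with a fraction for each alignment of a multi-mapped read and overlapping genes allowed. The strand setting was not given in the sources used here. Fractions made 9.50% to 12.8% of the entries per library.

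Counts were rounded and fitted in R 4.3.3 with edgeR 4.0.16 (filterByExpr, minimum count 10, minimum total 15; TMM; quasi-likelihood test, two-sided, 1 coefficient per group, 16 residual degrees of freedom), with Benjamini-Hochberg adjustment over 20240 genes and a threshold of 0.05. CPM are TMM-normalized. The labels do not say that replicates came from separate cultures, so p-values measure the spread between these samples. On simulated data for A2780 at 12 h (19199 genes), 178 of 200 genes changed by a fold of 2 were recovered and 8 unchanged genes were called. Fingers (C, 2 or 4 residues, C, 12 residues, H, 3 to 5 residues, H) and the KRAB motif were read by script from the longest open reading frame of GENCODE 44 transcripts. Alternatives were DESeq2 1.42.0 (size factors, Wald test), library size alone, no filter, compared groups alone, a replicate block, subsets of members, leaving out each library, and GC and length trends. Figures used Python 3.11.15, pandas 2.3.3 and matplotlib 3.10.9.

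Named members were the 3 largest changes each way in each treatment comparison, among called members whose groups did not overlap and whose average log2 CPM was 1 or more, 3 each way in the 12 h interaction and in the 12 h comparison of controls, the 5 highest per kilobase, and 10 with a known role; of the corepressor list, up to 4 with the smallest p at 12 h. The members and lists were chosen with earlier results of these data known.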

Additional observations from a re-analysis of the deposited data

Results flagged for a closer look

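The treatment effect differed between the lines, or between the times, by a test of the difference itself (edgeR's quasi-likelihood test, Benjamini-Hochberg adjustment). Between the lines this held for 3 members at 6 h (1.38%) and for 47 at 12 h (21.7%), against 3.07% and 23.7% of all genes tested. Between 12 h and 6 h it held for 103 members in A2780 (47.5%) and 50 in A2780cis (23%). The shares of all genes tested were 23.7% and 24%, so the share of members in A2780cis was not above that of all genes. At 6 h the log2 effect in A2780cis less that in A2780 was -1.39 for ZNF600 and -0.71 for ZNF584. At 12 h the effect was smaller in A2780cis for ZNF600 (-2.11), ZNF611 (-1.24), ZNF583 (-1.06), ZNF699 (-0.87), ZNF563 (-0.79), ZNF114 (-0.73), ZNF492 (-0.69), ZNF382 (-0.55), ZNF584 (-0.49), ZNF331 (-0.48) and ZNF317 (-0.43). It was larger for ZNF432 (2.43), ZNF610 (1.41) and ZNF285 (1.29). The value of ZNF432 is a fitted one and rests on A2780cis controls with at most 1 count, so its size is not interpretable.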

How the results depend on the processing

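Of the results for named members under all alternatives, 892 kept their direction and side of the threshold, 36 lost and 17 gained the threshold, and 19 changed sign. The deviations of same-numbered treated and control replicates from their group means had r of -0.25 to 0.31. Differently numbered replicates were not compared, so these values cannot settle whether the numbers pair samples. The replicate block moved no count by over 1.5 times (138 higher and 11 lower in A2780 and 121 and 17 in A2780cis at 12 h). Shared reads and low levels limit single genes. Where the cause of a shift is not in the construction of the alternative, the cause was not tested.

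The median log2 FC of the members at 12 h was 0.83 in A2780 and 0.58 in A2780cis with library size alone, which moved the median of all genes from 0.02 to 0.24 and from 0.04 to 0.15. It was 0.19 and 0.27 over whole-count genes. In A2780cis it was 0.38 without a filter, 0.55 with GC and 0.65 with GC and length correction. At 6 h it was 0.29 in A2780 over whole-count genes, and in A2780cis 0.29 with library size alone, 0.27 with GC, 0.28 with GC and length, and 0.23 over whole-count genes.

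The share of tested members past the threshold, between A2780 controls of 12 h and 6 h, was 24% and became 14.6% without a filter, 5.99% with GC, 9.22% with GC and length, and 42.1% over whole-count genes. Of all genes, 26.9% passed in the unaltered fit. Without a filter 8.77% were higher and 3.61% lower, with GC 5.28% and 4.45%, and with GC and length 5.24% and 5.74%. Between A2780cis controls the share of members was 48.8% and became 22.1% with library size alone (21 higher and 27 lower, against 19 and 87), 25.1% without a filter, 13.4% with GC and 13.8% with GC and length. Of all genes, 39.9% passed in the unaltered fit. With library size alone 23.2% were higher and 7.90% lower, and without a filter 9.40% and 6.43%. With GC it was 5.02% and 7.07%, and with GC and length 5.47% and 7.51%. In A2780 controls library size alone gave 14 higher and 26 lower against 12 and 40. Over whole-count genes the share was 36.8% against 67.7% for A2780 at 12 h, 28.9% against 47.5% for the change of its effect with time, and 13.2% against 21.7% for the 12 h interaction. For the change of the A2780cis effect with time, 23% became 35.9% with GC and 41.5% with GC and length. For the 6 h interaction, 1.38% of members became 5.53% with GC, 8.29% with GC and length, 2.63% over whole-count genes and 0.781% over members without exon overlap. Of all genes, 3.07% passed in the unaltered fit. With GC 1.84% were higher and 5.03% lower, and with GC and length 2.69% and 5.31%, so all genes moved the same way. The 12 h interaction split of 12 higher and 35 lower became 32 and 28 with GC and length, against 17.1% and 15.1% of all genes.

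Leaving out 1 library at a time gave medians of 0.53 to 0.61 (A2780 12 h), 0.06 to 0.17 (A2780 6 h), 0.42 to 0.48 (A2780cis 12 h) and 0.17 to 0.23 (A2780cis 6 h). The share past the threshold was 64.2% to 66.5%, 22.9% to 28.9%, 56.4% to 60.1% and 22% to 26.1% in the same order. It was 32.1% to 49.1% (A2780) and 14.2% to 23.9% (A2780cis) for the change with time, 16.5% to 21.1% (12 h) and 1.38% to 2.29% (6 h) for the interaction, 45.0% to 48.6% (12 h) and 43.6% to 46.3% (6 h) between the control lines, and 5.50% to 26.1% (A2780) and 29.8% to 48.2% (A2780cis) between control times. Libraries that moved a share by over 1.5 times were A2780 control replicate 1 at 6 h (7.34%) and replicate 3 at 12 h (5.50%), A2780cis control replicate 3 at 12 h (29.8% between control times, 15.1% for the change of effect), and A2780cis treated replicate 3 at 6 h (14.2% for the change of effect, 2.29% for the 6 h interaction).

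Signs changed for ZNF121 (0.16 in A2780 at 12 h with library size alone, 0.12 in A2780cis with GC and length), ZNF146 (0.041 in A2780 with library size alone), ZNF274 (in A2780cis 0.073 with library size alone, 0.058 with GC and length, -0.10 to 0.022 without 1 control), ZNF304 (in A2780 0.19 with library size alone, -0.079 to 0.0058 when a control and 0.030 when treated replicate 3 was left out), ZNF382 (0.18 in A2780cis with GC and length) and ZNF91 (-0.043 to 0.14 in A2780 without 1 control). ZNF675, at 0.0008 in A2780cis, was -0.00452 with DESeq2 size factors, -0.050 without a filter, -0.0059 with the compared groups alone, -0.00467 with DESeq2, -0.00802, -0.090 and 0.086 without control replicates 2, 3 and 1, and -0.098 and -0.031 without treated replicates 1 and 2.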
